A study of Mus musculus with 3 samples.

Results

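The genes whose products write, erase and read chemical marks on histones and DNA were described in mouse macrophages. Members were chosen by symbol, with no measured value used: the Kdm, Kmt, Setd, Hdac, Sirt, Kat, Dnmt, Tet, Brd and Nsd families, with Ezh1, Ezh2, Ehmt1, Ehmt2, Suv39h1 and Suv39h2 and without Kdm5d, where the gene has a protein-coding transcript. This gave 84 of 21901 genes with a protein-coding transcript. By the role of the protein they were sorted into 32 writers, 38 erasers, 7 readers and 7 others. The others are SET-domain proteins without a settled histone mark, the inactive cofactor gene Dnmt3l and Brd3os, which lies beside Brd3.

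The cells were macrophages grown in culture from marrow of the inbred mouse strain C57BL/6J, and polyadenylated RNA was sequenced in 3 samples that form 1 group. By the labels each sample had lipid A at 100 ng/ml for 12 hours, then 12 hours after washing, then lipid A at 100 ng/ml again for 180 minutes; other label fields name the agent lipoprotein A, and this conflict was not resolved. Lipid A is the part of bacterial lipopolysaccharide that Toll-like receptor 4 recognises. Unexposed cells and cells exposed only once were not analysed here, so levels, ratios within a sample and the spread between replicates are given. All 3 samples have the same donor record and nothing says that they came from separate animals or cultures, so p-values here speak of the spread among these 3 samples alone, and that spread may be technical.

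Writers attach a group to chromatin: lysine methyltransferases and acetyltransferases act on histone tails, and DNA methyltransferases act on cytosine in CG dinucleotides. Erasers remove it, through lysine demethylases, histone deacetylases (HDACs), NAD-dependent deacetylases (sirtuins) and the TET enzymes that oxidise 5-methylcytosine. Readers bind a mark; the bromodomain proteins bind acetylated lysine and recruit the transcription machinery. In macrophages these proteins set which enhancers and promoters can respond to a microbial stimulus, and several are drug targets in inflammation.

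Total expected counts ranged from 23418690 in replicate 1 to 37728915 in replicate 3. Levels are in TPM (transcripts-per-million), the share of all transcripts in a library after division by transcript length, so they can be compared between genes. Where 3 values are listed they are replicates 1, 2 and 3 in that order, and every ± is an SD over n = 3 replicates. All 8 macrophage markers reached 1 TPM in every replicate and summed to between 16022 and 18414 TPM. Among markers of neutrophils, B cells, T and NK cells, stroma and endothelium, only Pecam1 did so, and the neutrophil gene Ly6g was at 0 in all. In RNA from whole cultures, fewer cells that express a gene and less RNA per cell cannot be told apart.

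Most of these genes were expressed. Of the 84 members 74, or 88.1%, were at 1 TPM or more in every replicate, against 44.5% of the 21901 genes. At 10 TPM or more throughout were 43 members, or 51.2%, against 27.6%. By role, 29 of 32 writers, 34 of 38 erasers, 7 of 7 readers and 4 of 7 others passed 1 TPM. At 10 TPM the counts were 19 writers, 15 erasers, 6 readers and 3 others. The members together held 1806, 1765 and 1766 TPM in replicates 1, 2 and 3.

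Readers stood highest, writers next and erasers lowest by their median, as the plot of medians by role shows. The median log2(TPM + 1) was 4.56 ± 0.28 over readers, 3.87 ± 0.08 over writers and 3.04 ± 0.08 over erasers. Over all 9738 expressed genes it was 4.26 ± 0.02. The role medians include members that were not expressed. Over expressed members alone the median was 4.06 ± 0.10 for writers and 3.39 ± 0.12 for erasers, and it was unchanged for readers. Over members with a mean of at least 1 TPM, readers exceeded writers by 0.50. With all members counted, writers exceeded erasers by 0.89, 0.75 and 0.86, a mean of 0.83 ± 0.07 on this log2 scale. Readers exceeded writers by 0.92, 0.64 and 0.51 (mean 0.69 ± 0.21) and erasers by 1.80, 1.39 and 1.38 (mean 1.52 ± 0.24). All 3 replicates gave this order, and each mean was beyond 2 of its SDs. In CPM (counts-per-million), the share of counts with no division by length, readers exceeded writers by 0.20 only, and without the 3 mitochondrial sirtuins writers exceeded erasers by 0.55. No test was made over genes, and a sum gave another picture: writers held 612 ± 12.4 TPM in all, erasers 592 ± 7.62 and the 7 readers 435 ± 11.5.

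**Figure D1:**
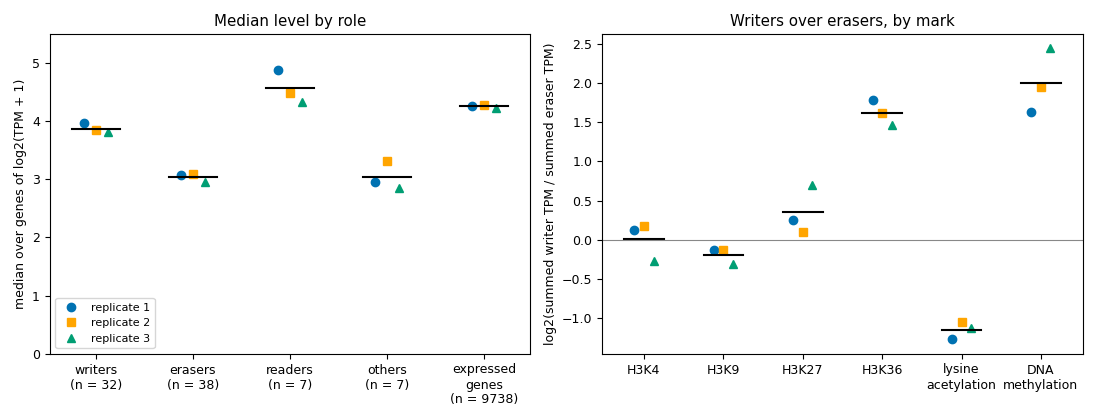
Left, the median over genes of log2(TPM + 1) in each replicate (points) and its mean (line) by role; right, log2 of summed writer TPM over summed eraser TPM for 6 marks. The reader points lie above the writer points and the writer points above the eraser points in every replicate, and on the right the H3K36 and DNA methylation points lie above 0 while those of lysine acetylation lie below -1.

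Among the H3K4 methyltransferases, which mark enhancers and promoters, 7 of 7 members passed 1 TPM and none stood far above the rest. Kmt2d, the main enhancer monomethyltransferase, was at 21.4, 23.9 and 19.1 TPM. Kmt2a, the MLL gene of leukaemia translocations, was at 17.6, 19.3 and 16.0 TPM. Kmt2b, its close relative, was at 15.2, 15.7 and 15.1 TPM. These 3 kept the same order in each replicate, although Kmt2a exceeded Kmt2b by only 0.20 ± 0.11 (log2 of the TPM ratio), which is under 2 SDs. The place of Kmt2d rests on a short transcript, Kmt2d-204: long coding transcripts, with at least 80% of the longest coding sequence of the gene, held 42.2% of the TPM of Kmt2d and 98.2% of that of Kmt2a. Setd1b, an enzyme that trimethylates H3K4 at promoters, was at 14.0, 11.3 and 12.4 TPM. Setd1a, its partner, was at 8.95, 8.50 and 8.01 TPM, but 51.8% of its 31-base sequences also occur in other genes, nearly all in the overlapping gene Gm49388, so its level is uncertain. Kmt2c, which works beside Kmt2d, was at 7.75, 9.47 and 6.14 TPM. Kmt2c lay below Kmt2d by 1.48 ± 0.15 and Setd1a below Setd1b by 0.56 ± 0.13 in log2 ratio, each in 3 of 3 replicates. Setd7, which also methylates many other proteins, was lowest at 5.72, 4.85 and 3.70 TPM.

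The H3K9 methyltransferases, which silence genes, were led by a single member. Ehmt2 encodes G9a, the main H3K9 dimethyltransferase (ENSMUSG00000013787.15, chr17:34898469-34914052, plus strand, mm10), and was at 84.7, 70.2 and 68.3 TPM. Its partner Ehmt1, which forms a dimer with G9a, was at 8.20, 8.05 and 7.42 TPM. Ehmt2 therefore exceeded Ehmt1 9.39-fold, a log2 ratio of 3.23 ± 0.13 that was alike in the 3 replicates. Suv39h1, the enzyme that trimethylates H3K9 in heterochromatin, was at 7.98, 9.95 and 9.25 TPM. Its paralog Suv39h2 was at 0.39, 0.71 and 0.34 TPM, from 21, 51 and 26 counts. The 2 paralogs differed 19.8-fold (log2 ratio 4.31 ± 0.48), and Suv39h2 was highest in replicate 2. Of the 31-base sequences of Suv39h1, 14.4% occur in other genes, mainly Gm14820.

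Both catalytic subunits of PRC2, the H3K27 methyltransferase complex, were expressed, with Ezh1 above Ezh2. Ezh1, the form typical of cells that do not divide, was at 21.1, 24.0 and 24.8 TPM. Ezh2, the form typical of dividing cells, was at 9.88, 8.80 and 9.14 TPM. The ranges of the pair did not overlap, and the log2 ratio was 1.33 ± 0.20, or 2.51-fold. Of 9 listed partner genes of PRC2, 9 passed 1 TPM, from Aebp2 at 80.8 ± 10.3 TPM and Rbbp7 at 60.6 ± 7.71 TPM down to Phf19 at 1.92 ± 0.29 TPM. Of 7 proliferation genes, 5 passed 1 TPM. By mean the highest were Pcna at 191, 249 and 230 TPM and Mki67 at 26.0, 10.9 and 21.1 TPM. Mki67 was lowest in replicate 2, where Pcna, Cdk1, Mcm5, Top2a and Rrm2 were highest and Ccnb1 was not. How far cycling cells set the levels of Ezh1 and Ezh2 was not tested.

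The H3K36 methyltransferases were all above 10 TPM in all replicates. Nsd3 was highest at 39.9, 43.9 and 32.5 TPM. Setd2, which trimethylates H3K36 behind RNA polymerase, was at 30.7, 30.2 and 26.9 TPM. Over all transcripts, these 2 lay above the remaining members in every replicate. Nsd3-203, a shortened coding form, took 57.3% of the TPM of Nsd3. The place of Nsd3 therefore holds for all its transcripts together and was not shown for its long coding form. Nsd1, a dimethyltransferase, was at 17.1, 19.1 and 19.0 TPM. Nsd2, which acts on the same mark, was at 17.5, 14.0 and 17.4 TPM. Nsd1 and Nsd2 did not differ beyond their spread (log2 ratio 0.18 ± 0.25), while Nsd3 exceeded Nsd2 by 1.25 ± 0.38. For H4K20, Kmt5a, the monomethyltransferase of the cell cycle, was at 54.4, 56.1 and 46.4 TPM. Kmt5b, which adds further methyl groups, was at 12.4, 11.2 and 10.6 TPM. Kmt5c, its paralog, was at 6.16, 4.70 and 4.70 TPM. Kmt5a thus stood above both, and Kmt5b exceeded Kmt5c by 1.15 ± 0.12 in log2 ratio.

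All 8 lysine acetyltransferases of the Kat families passed 1 TPM. Kat5 (Tip60), the catalytic subunit of the NuA4 complex, was at 33.4, 43.2 and 36.2 TPM. Kat7 (Hbo1), an H3K14 acetyltransferase, was at 30.99, 33.7 and 36.5 TPM. Their order changed between replicates, with a log2 ratio of Kat7 over Kat5 of -0.15 ± 0.19. Kat6a (Moz) was at 16.9, 19.9 and 18.6 TPM. Its paralog Kat6b was at 1.48, 1.13 and 1.09 TPM. The pair differed 15.1-fold (log2 ratio 3.91 ± 0.35), the widest gap of the 3 acetyltransferase pairs compared. Kat2b (Pcaf) was at 17.7, 18.8 and 13.3 TPM. Kat2a (Gcn5), the alternative subunit of the same complexes, was at 6.15, 8.29 and 7.74 TPM. Kat2a lay below Kat2b by 1.16 ± 0.37 in each replicate. Kat8 (Mof), the H4K16 acetyltransferase, was at 12.2, 12.7 and 12.8 TPM, and Kat14 had a mean of 10.2 ± 0.50 TPM. Some 31-base sequences also occur in other genes: 14.6% of those of Kat2b, 13.7% of Kat14, 12.7% of Kat8 and 10.6% of Kat5. Outside the symbol families, Hat1, which acetylates newly made H4, was at 108 ± 11.0 TPM, Ep300 at 27.2 ± 3.78 TPM and Crebbp at 7.75 ± 1.36 TPM.

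Of the DNA methyltransferases, Dnmt3a was abundant, Dnmt1 moderate and Dnmt3b and Dnmt3c nearly silent. Dnmt3a, the de novo enzyme (ENSMUSG00000020661.15, chr12:3806007-3914443, plus strand, mm10), was at 71.6, 57.9 and 89.2 TPM. Dnmt1, the maintenance enzyme, was at 17.4, 18.7 and 14.5 TPM. The log2 ratio of Dnmt1 over Dnmt3a was -2.10 ± 0.50, and the ranges did not overlap. Dnmt3b, the other de novo enzyme, was at 0.19, 0.28 and 0.21 TPM, from 11, 28 and 21 counts. Dnmt3c, a rodent germline copy of Dnmt3b, was at 0.22, 0.13 and 0.08 TPM, from 7, 6 and 4 counts. These 2 share sequence (31.9% of the 31-base sequences of Dnmt3c occur in Dnmt3b), so reads cannot be fully told apart, and both lay under 1 TPM in every replicate. Dnmt3a exceeded Dnmt3b by 8.33 ± 0.56 in log2 ratio. The cofactor gene Dnmt3l was uneven, at 6.71, 0.19 and 0.90 TPM from 50, 5 and 10 counts, which rests mostly on replicate 1.

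The level of Dnmt3a depends on which of its transcripts are counted. Dnmt3a-214, an annotated piece of 369 bases with a retained intron and no reading frame, took 35.1%, 25.8% and 46.1% of the TPM of the gene. It drew only 1.19% ± 0.51 of the expected counts of the gene, since TPM weighs a short transcript more per read. With protein-coding transcripts alone Dnmt3a was at 45.9, 42.0 and 46.8 TPM, a mean of 44.9 ± 2.57 in place of 72.9 ± 15.7. The 3 coding values lay close together, and the wide spread of the gene level was not seen in them. The coding transcripts start in different places. Those that begin at the upstream end of the gene and encode the long enzyme took 53.6%, 57.4% and 51.3% of coding TPM. Dnmt3a-205, which begins inside the gene and encodes 689 rather than 908 amino acids, took, with another transcript of the same start region, 34.1%, 28.5% and 37.7%. The FASTQ-made tables, a second quantification of the same libraries, gave 45.1% ± 2.69 and 32.7% ± 7.15 for these 2 start regions.

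Kdm2b also divides between start regions. Kdm2b encodes a protein that binds unmethylated CG-rich DNA and, in its long form, has a demethylase domain for H3K36. Kdm2b-201, which starts inside the gene and encodes 776 of at most 1309 amino acids, took 85.9%, 88.0% and 87.1% of the TPM of the gene. It also held 84.4% ± 4.10 of its expected counts. The 8 transcripts that start at the upstream end took 10.9%, 6.89% and 11.3%. In the FASTQ-made tables Kdm2b-201 took less, 65.9% ± 17.8, and 46.2% in replicate 1, although it was 87.3% ± 2.77 of the coding TPM there. The short form is known to lack the demethylase domain, so the place of Kdm2b among erasers holds for a minor part of its transcripts. The promoter windows of these 4 starts, chosen after the shares were seen, are shown because the data divide each gene between them. Each runs from 250 bases before to 50 bases after a RefSeq start (build GRCm38.p6), 5′ to 3′ on the strand of the gene, with CG dinucleotides, the site of DNA methylation, in capitals:
Dnmt3a upstream start, chr12:3806730-3807029, plus strand: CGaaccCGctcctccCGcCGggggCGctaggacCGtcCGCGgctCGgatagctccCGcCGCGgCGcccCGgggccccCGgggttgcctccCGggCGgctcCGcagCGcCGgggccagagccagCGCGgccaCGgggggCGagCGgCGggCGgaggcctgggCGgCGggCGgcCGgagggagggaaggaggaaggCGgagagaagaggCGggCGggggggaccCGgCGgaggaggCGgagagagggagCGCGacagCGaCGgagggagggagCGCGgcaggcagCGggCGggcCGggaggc
Dnmt3a internal start, chr12:3891494-3891793, plus strand: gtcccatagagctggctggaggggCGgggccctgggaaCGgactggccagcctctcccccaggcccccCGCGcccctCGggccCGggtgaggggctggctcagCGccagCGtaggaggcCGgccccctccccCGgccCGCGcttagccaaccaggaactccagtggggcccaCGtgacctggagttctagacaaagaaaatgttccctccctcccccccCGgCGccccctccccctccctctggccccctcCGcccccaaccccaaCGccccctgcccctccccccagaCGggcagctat
Kdm2b upstream start, chr5:122988458-122988757, minus strand: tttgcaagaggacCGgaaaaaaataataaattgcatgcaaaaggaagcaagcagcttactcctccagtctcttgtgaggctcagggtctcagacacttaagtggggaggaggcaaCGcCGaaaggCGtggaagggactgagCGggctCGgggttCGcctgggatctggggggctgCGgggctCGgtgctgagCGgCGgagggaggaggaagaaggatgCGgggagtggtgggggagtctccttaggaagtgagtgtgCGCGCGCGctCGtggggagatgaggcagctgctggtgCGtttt
Kdm2b internal start, chr5:122900301-122900600, minus strand: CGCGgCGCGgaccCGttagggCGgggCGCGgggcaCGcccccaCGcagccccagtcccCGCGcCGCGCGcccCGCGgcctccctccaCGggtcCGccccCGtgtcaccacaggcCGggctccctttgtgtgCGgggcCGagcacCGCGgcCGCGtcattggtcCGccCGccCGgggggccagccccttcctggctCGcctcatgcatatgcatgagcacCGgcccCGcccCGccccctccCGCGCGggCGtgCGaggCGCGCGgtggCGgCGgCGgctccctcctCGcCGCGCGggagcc
The upstream Dnmt3a window holds 46 CG dinucleotides and the internal window 18. For Kdm2b the upstream window holds 18 and the internal window 49. A count at least as high was found in 1.65%, 29.7%, 29.7% and 1.02% of 32841 windows of all genes, in the order printed. The upstream Kdm2b window printed is the one nearest the start of Kdm2b-203. Another RefSeq window at that end of the gene, chr5:122989050-122989349, holds 28, still fewer than the internal window. In both genes the start region with the larger share of coding TPM was the CG-richer of the pair. Other members with several windows were not compared in this way, and a link between CG count and start use was not tested. Windows were found for 66 of the 84 members, and their median was 28.5 CG dinucleotides (taking the richest window of each gene) against 23 in 7826 expressed genes. By role the median was 33 for 25 writers, 21 for 30 erasers and 36 for 5 readers. GGGCGG or its complement CCGCCC, the GC box, was found in 72.7% of these windows of members, against 68.3% of those of expressed genes. TATAAA on the strand of the gene was in 0% of them, against 3.97%, and no factor's binding was measured.

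The H3K4 demethylases were led by Kdm5c, and all 5 passed 1 TPM. Kdm5c, an X-linked H3K4 demethylase, was at 36.8, 36.3 and 44.3 TPM. Kdm1a (Lsd1), the flavin-dependent demethylase, was at 21.6, 23.6 and 25.3 TPM. Kdm5a, a relative of Kdm5c, was at 17.2, 15.7 and 18.2 TPM. The 3 kept this order in each replicate, and Kdm5a lay below Kdm5c by 1.20 ± 0.09 in log2 ratio. Kdm1b, the paralog of Kdm1a, was at 3.99, 4.25 and 5.01 TPM. Kdm5b, another relative, was at 3.45, 2.47 and 3.96 TPM. Kdm1a exceeded Kdm1b 5.32-fold and Kdm5b lay below Kdm5c by 3.59 ± 0.25 in log2 ratio, both in every replicate.

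Among H3K9 demethylases Kdm4a was highest and Kdm4d was close to absent. Kdm4a, which acts on trimethylated H3K9 and H3K36, was at 57.1, 42.6 and 59.4 TPM. Kdm3b, which acts on lower methylation states, was at 17.2, 19.5 and 17.2 TPM. Its level is uncertain: 25.7% of its 31-base sequences occur in other genes, mainly Gm26538. The FASTQ-made tables gave it 11.7, 17.4 and 27.2 TPM. Kdm3a, the paralog of Kdm3b, was at 15.9, 15.2 and 13.0 TPM. Kdm4a stood clear of both, while Kdm3a and Kdm3b differed by less than 2 SDs (log2 ratio -0.29 ± 0.16). Kdm4b was at 7.15, 6.59 and 6.43 TPM, which puts Kdm4a above it 7.81-fold. Kdm7a, which also acts on H3K27, was at 5.99, 5.25 and 3.15 TPM. Kdm4d was at 0.07, 0 and 0 TPM, from 2, 0 and 0 counts, and a count of 0 allows up to 3. Kdm7a was lowest in replicate 3, and Kdm4c, not among the 3 highest, had a mean of 7.79 ± 0.84 TPM.

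The H3K27 demethylases differed widely from each other. Kdm6a (Utx) was at 23.5, 25.5 and 18.5 TPM. Kdm6b (Jmjd3), known as a gene that inflammatory stimuli induce in macrophages (ENSMUSG00000018476.7, chr11:69398508-69413675, minus strand, mm10), was at 2.60, 5.10 and 2.31 TPM. Kdm6b thus lay 0.14 times as high as Kdm6a (log2 ratio -2.83 ± 0.45), with replicate 2 the highest for both. In replicate 2 the 5 neutrophil markers summed to 8.93 TPM, against 1.32 and 0.63 in the others, mostly through Ngp; their part in the Kdm6b level was not tested. Of the H3K36 demethylases, Kdm2a was at 25.3, 28.6 and 27.6 TPM. Kdm2b was at 4.40, 5.65 and 5.69 TPM. Kdm8, whose histone activity is debated, was at 0.83, 0.80 and 1.51 TPM. Kdm2a therefore exceeded its paralog Kdm2b 5.20-fold, a log2 ratio of 2.38 ± 0.13.

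The class I HDACs, the nuclear deacetylases of the Sin3, NuRD, CoREST and NCoR complexes, were led by Hdac1. Hdac1 was at 60.0, 58.5 and 57.1 TPM. Hdac3, the NCoR enzyme, was at 20.6, 24.3 and 25.5 TPM. Hdac2, the close paralog of Hdac1, was at 17.5, 20.7 and 15.5 TPM. Hdac1 exceeded Hdac2 by 1.72 ± 0.20 and Hdac3 by 1.32 ± 0.20 in log2 ratio, but 40.0% of its 31-base sequences occur in other genes, mainly in Gm10093. Hdac8, the last class I member, had a mean of 4.43 ± 0.53 TPM. Their partner genes were all expressed, with 19 of 19 at 1 TPM or more, led by Sin3b at 113 ± 4.91 TPM and Chd4 at 113 ± 11.5 TPM.

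The class IIa HDACs, which shuttle between cytoplasm and nucleus, were low apart from Hdac5. Hdac5 was at 11.4, 13.5 and 13.1 TPM. Hdac7 was at 3.03, 1.77 and 1.16 TPM. Hdac9 was at 2.72, 1.45 and 1.54 TPM. Hdac7 and Hdac9 were both highest in replicate 1, the library with the fewest counts. Hdac4 was at 1.80, 2.17 and 1.60 TPM, and Hdac7 over Hdac4 had no settled direction (log2 ratio -0.00 ± 0.66). Of the 31-base sequences of Hdac4, 21.9% occur in other genes, mainly Gm26720. Of the remaining classes, Hdac10 was at 3.26, 3.45 and 2.71 TPM. Hdac6, the tubulin deacetylase, was at 3.15, 3.48 and 2.71 TPM. Hdac11 was at 0.06, 0.08 and 0.23 TPM, from 2, 5 and 13 counts. The 4 class IIa genes together held 18.4 ± 0.92 TPM, against 104 ± 3.62 TPM for the 4 of class I.

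Sirt2 was the highest eraser. It encodes a deacetylase found mainly in the cytoplasm (ENSMUSG00000015149.14, chr7:28766735-28788661, plus strand, mm10), and was at 105, 101 and 110.0 TPM. Sirt7, a nucleolar enzyme that removes H3K18 acetylation, was at 45.4, 52.0 and 38.2 TPM. Sirt6, an H3K9 and H3K56 deacetylase, was at 17.4, 13.2 and 12.2 TPM. Sirt1, which deacetylates histones and the p65 subunit of NF-κB, was at 14.8, 8.57 and 12.8 TPM. Sirt2 exceeded Sirt1 8.92-fold (log2 ratio 3.16 ± 0.37), while Sirt6 and Sirt1 changed order between replicates (0.26 ± 0.35). Among the mitochondrial sirtuins, which act away from chromatin, Sirt4 was at 5.99, 4.57 and 5.20 TPM. Sirt3, the main mitochondrial deacetylase, was at 3.72, 5.13 and 5.46 TPM. Sirt5, which removes succinyl groups, was at 1.69, 2.66 and 2.65 TPM. All 3 lay under 10 TPM and below every nuclear or cytoplasmic sirtuin in each replicate.

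Of the TET enzymes, Tet2 and Tet3 were expressed and Tet1 was close to absent. Tet2, the TET gene most often mutated in myeloid disease (ENSMUSG00000040943.12, chr3:133463679-133545139, minus strand, mm10), was at 19.4, 8.60 and 10.3 TPM. Tet3 was at 9.49, 11.4 and 8.85 TPM. Tet1 was at 0.04 TPM in each replicate, from 8, 5 and 5 counts. Tet2 stood above Tet3 in replicates 1 and 3 and below it in replicate 2 (log2 ratio 0.28 ± 0.72), so over all transcripts this pair has no settled order. Transcripts with a retained intron took 44.2% ± 13.2 of the TPM of Tet2. With protein-coding transcripts alone Tet2 was at 8.24, 4.41 and 6.67 TPM and Tet3 at 9.38, 11.2 and 8.83 TPM. On that measure Tet2 lay below Tet3 in 3 of 3 replicates (log2 ratio -0.65). Among readers and repair factors of DNA methylation, 10 of 11 listed genes passed 1 TPM, led by Gadd45b at 467 ± 32.0 TPM and the methyl-CG binding gene Mbd2 at 116 ± 4.24 TPM.

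The readers were led by Brd2, the highest of all 84 members. Brd2, a BET bromodomain protein (ENSMUSG00000024335.20, chr17:34112023-34122634, minus strand, mm10), was at 263, 236 and 255 TPM, above 94.1% of expressed genes. Brd3, a related BET gene, was at 9.52, 10.5 and 13.7 TPM. Brd2 stood above Brd3 in each replicate, and their ranges lay far apart. Brd7, a subunit of the PBAF remodelling complex, was at 60.6, 62.9 and 62.1 TPM. Brd9, a subunit of the non-canonical BAF complex, was at 28.4, 21.4 and 19.0 TPM. Brd8, of the Tip60 complex, was at 17.9, 18.9 and 14.6 TPM. Brd1, a scaffold of Kat7, had a mean of 16.9 ± 1.40 TPM, so all 4 of these were at 10 TPM or more throughout. Of 23 listed bromodomain and chromodomain genes outside the families, 22 passed 1 TPM, led by the remodelling ATPase gene Smarca4 at 45.4 ± 2.82 TPM and by Trim28 at 40.6 ± 6.35 TPM.

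Among the others, Setd3, an actin histidine methyltransferase, was at 64.2, 73.7 and 77.6 TPM. Setd5, which has no settled activity, was at 39.9, 34.9 and 35.0 TPM. Kmt2e, an MLL relative without methyltransferase activity, was at 22.4, 18.6 and 18.4 TPM. These 3 exceeded most writers, although 21.9% of the 31-base sequences of Setd3 occur in other genes, mainly Gm14026. Setd6, which methylates p65, was at 6.07, 8.91 and 6.18 TPM. Setd4 was at 2.36, 0.75 and 0.99 TPM, from 17, 20 and 23 counts. Brd3os was at 0.69, 0.33 and 0.66 TPM. Setd4, Brd3os and Dnmt3l, with Kdm4d, Kdm8, Tet1, Hdac11, Dnmt3b, Dnmt3c and Suv39h2, are the 10 members that missed 1 TPM in some replicate. Of 109 listed partner and related genes outside the families, 107 passed it.

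**Figure D2:**
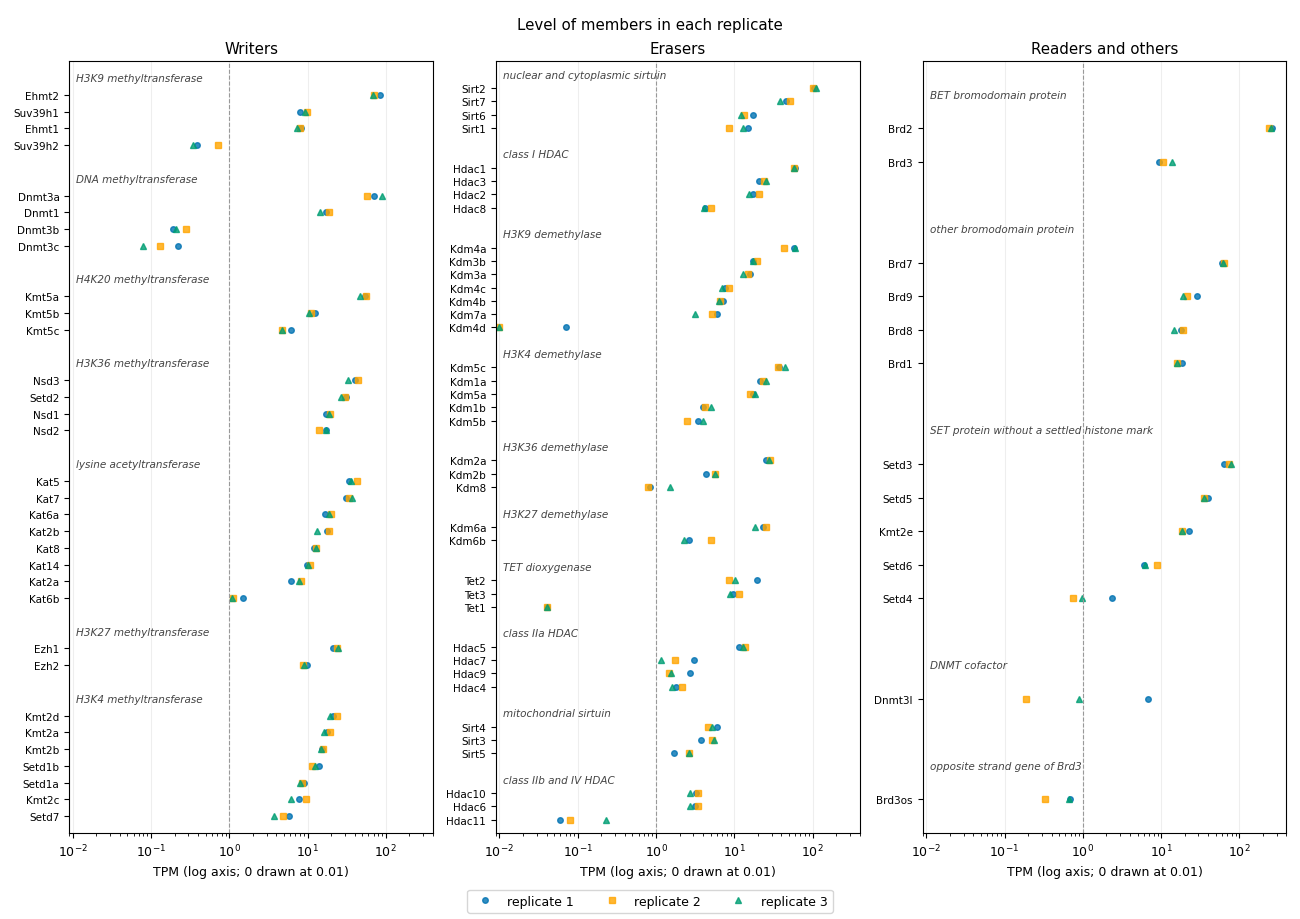
TPM of 83 members on a log axis, grouped by role and class, with a point for each replicate, a dashed line at 1 TPM and values of 0 drawn at 0.01. Brd2 lies farthest right in every replicate, most members lie between 1 and 100 TPM with their 3 points close together, and Dnmt3l is the member whose points are farthest apart among those above 0 throughout.

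Most ratios of TPM between related genes kept their side over the replicates. Of the 30 pairs examined, 25 had all 3 replicates on the same side and 23 had a mean log2 ratio beyond 2 SDs. With 3 replicates the exact two-sided sign-flip test cannot go below p = 0.25 (0.3 after Benjamini-Hochberg adjustment over the 30 pairs), so no pair could pass 0.05. The pairs without a settled side were Tet2 with Tet3, Hdac7 with Hdac4, Nsd1 with Nsd2, Kat7 with Kat5 and Sirt6 with Sirt1. The widest, Dnmt3a over Dnmt3b and Tet2 over Tet1 at 8.22 ± 0.62, rest on a denominator of few counts. With protein-coding transcripts alone Tet2 over Tet3 turned to -0.65 and Hdac7 over Hdac4 was -0.72. Other ratios moved by over 1.5 times and kept their side: Dnmt1 over Dnmt3a was -1.46, Dnmt3a over Dnmt3b 7.63, Suv39h1 over Suv39h2 5.24, Kmt5b over Kmt5c 2.02, Kdm5a over Kdm5c -2.23 and Sirt2 over Sirt1 3.80. In CPM, with no division by length, Tet2 over Tet3 turned to -0.44, Sirt6 over Sirt1 to -1.01 and Kat7 over Kat5 to 1.05, and Hdac7 over Hdac4 was -1.04. In CPM, too, Kdm6b over Kdm6a was -2.06, Ezh1 over Ezh2 2.51, Kmt2a over Kmt2b 1.68, Kdm1a over Kdm1b 1.81, Kdm2a over Kdm2b 3.05, Kmt5b over Kmt5c 2.81 and Sirt2 over Sirt1 2.01. In the FASTQ-made tables Tet2 over Tet1 was 7.35.

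**Figure D3:**
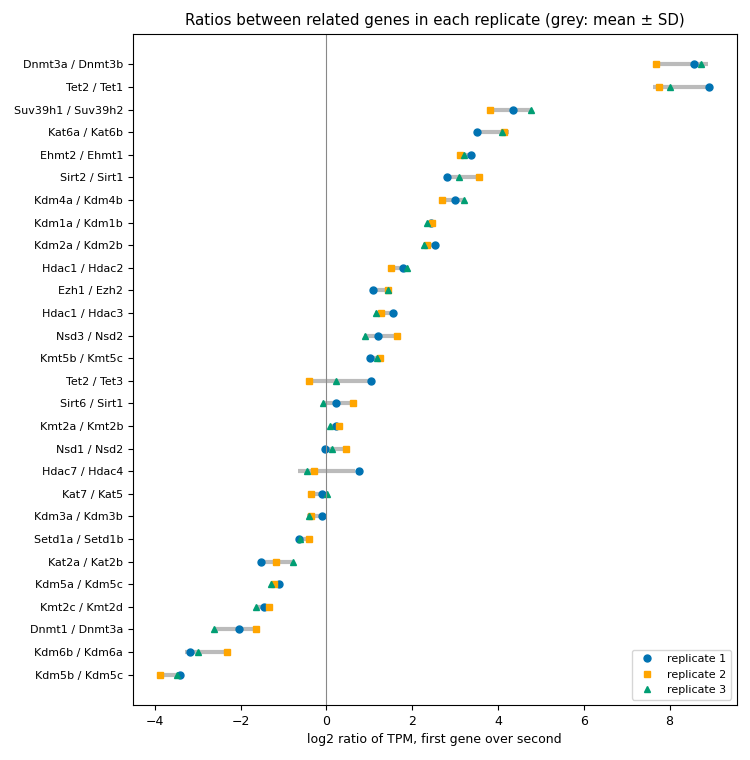
Log2 TPM ratio of the first gene over the second in each replicate (points) for 28 pairs, with the mean ± SD as a grey bar. The pairs from Kdm5b over Kdm5c at -3.59 to Dnmt3a over Dnmt3b at 8.33 are ordered by their mean, and 5 pairs have points on both sides of 0.

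Writers and erasers of the same mark were then compared by their summed TPM in each sample. For H3K36, 4 writers exceeded 3 erasers by 1.79, 1.61 and 1.46 (mean log2 ratio 1.62 ± 0.16), and Kdm2a made 81.2% of the eraser sum. For DNA methylation, 4 writers exceeded 3 TET erasers by 1.63, 1.95 and 2.44 (2.01 ± 0.41), and Dnmt3a made 80.9% of the writer sum. For lysine acetylation, 8 writers lay below 15 erasers by 1.27, 1.06 and 1.13 (-1.15 ± 0.11), and Sirt2 alone made 34.4% of the eraser sum. These 3 marks kept a side in 3 of 3 replicates, beyond 2 SDs, and without Sirt2 the acetylation value was -0.54. H3K27 writers exceeded erasers by 0.25, 0.10 and 0.70 (0.35 ± 0.32). H3K9 writers lay below erasers by 0.13, 0.14 and 0.32 (-0.19 ± 0.10), and Ehmt2 made 81.0% of the writer sum. H3K4 gave 0.13, 0.18 and -0.27 (0.01 ± 0.24), with sums of 88.0 ± 6.67 and 87.3 ± 8.21 TPM. For H3K27, H3K9 and H3K4 the mean was under 2 SDs from 0, and for H3K4 the replicates took both sides. In CPM, which counts long transcripts more, the H3K4 value was 1.07, the H3K9 value -0.83, the acetylation value -0.26 and the DNA methylation value 0.91. Transcripts with at least 80% of the longest coding sequence of a gene gave 1.24 for H3K27 and 0.85 for H3K36. Each gene was assigned a single mark although several act on more. Kdm4a, counted for H3K9 alone, was at 53.0 ± 9.13 TPM, and the H3K36 eraser sum was 33.4 ± 2.54 TPM. Genes outside the symbol families are not in these sums. They include the acetyltransferase genes Hat1 (108 ± 11.0 TPM), Ep300 (27.2 ± 3.78 TPM) and Crebbp (7.75 ± 1.36 TPM). The acetylation sums without them were 138 ± 10.1 TPM for writers and 306 ± 6.36 TPM for erasers. Setdb2 (37.0 ± 8.24 TPM) and Jmjd1c (23.8 ± 3.94 TPM), of the methyltransferases and demethylases, are also left out. The balances therefore hold for the listed genes alone. The exact sign-flip test cannot go below p = 0.25 here either.

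No member was called as more variable between replicates than genes of its abundance. The test was the dispersion of each gene over the trend in an intercept-only quasi-likelihood fit of edgeR, adjusted by Benjamini-Hochberg over all genes tested. Of 79 members tested, 0 passed an adjusted p of 0.05, and of all 11992 genes 0 passed (0%). The smallest adjusted p of edgeR over all genes was 0.818. With 3 samples in 1 group the test had little power, so 0 calls do not show that members were steady. At an unadjusted p under 0.05 there were 2 members, against 5.23% of all genes, and 30 members had an F above 1, against 43.6%. Dnmt3l, Dnmt3c, Hdac11, Kdm4d and Tet1 had too few counts to be tested. With no filter on low counts edgeR called 143 genes, 0 of them members, and with size factors of DESeq2 it called 0. The median SD of log2 CPM was 0.16 over members and 0.19 over all genes. Above a mean log2 CPM of 3 it was 0.15 over 62 members and 0.16 over 7967 genes.

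Among the 79 members tested, the one that varied most was Tet2. It had the largest SD of log2 CPM, 0.55, and stood 0.63 above its mean in replicate 1 (edgeR unadjusted p = 0.0200, adjusted p = 0.850). Kdm7a, with an SD of 0.45, stood 0.51 below its mean in replicate 3 (edgeR unadjusted p = 0.0469, adjusted p = 0.942). Kdm6b, with an SD of 0.49, stood 0.54 above its mean in replicate 2. Of the 10 members with the largest SD, 8 were erasers, 1 a writer and 1 of the others, where 35 of the 79 members tested were erasers; this was not tested, and 6 were highest in replicate 1. The rest of the 10 were Brd3os, Hdac9, Suv39h2, Sirt1, Hdac7, Kdm8 and Sirt5, and Sirt1 stood 0.50 below its mean in replicate 2. Apart from Sirt1 these had few counts, with a mean log2 CPM from -0.58 (Brd3os) to 2.29 (Hdac9). The SD runs larger there: its median over all genes tested was 0.19, and 0.16 from a mean log2 CPM of 3 upward. By median the SD was 0.16 over erasers and 0.18 over writers. Among the related genes outside the families, 0 of 108 tested passed the adjusted threshold of edgeR and 2 had an unadjusted p under 0.05. Those were the stress gene Gadd45a, at 57.3, 17.6 and 35.3 TPM, and Jarid2, a PRC2 cofactor, at 9.01, 4.40 and 5.36 TPM. Both were highest in replicate 1, as Tet2 was.

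Hdac1 had the smallest SD of log2 CPM, 0.0086, followed by Setd2 at 0.024, Kat8 at 0.035, Sirt4 at 0.039 and Kdm3a at 0.046. These are the low end of 79 values from 3 replicates each, and Sirt4 had only 50, 78 and 80 counts. They do not show that these genes are steadier than others. The median SD was 0.11 over the 7 readers, 0.16 over 35 erasers and 0.18 over 31 writers tested. Replicate 1 was the highest library for 32 of the 79 members, or 40.5%, against 35.9% of all genes tested. The median member deviated from its mean by 0.02, 0.02 and -0.02 in the 3 libraries, against medians of 0.00 to 0.01 over all genes.

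**Figure D4:**
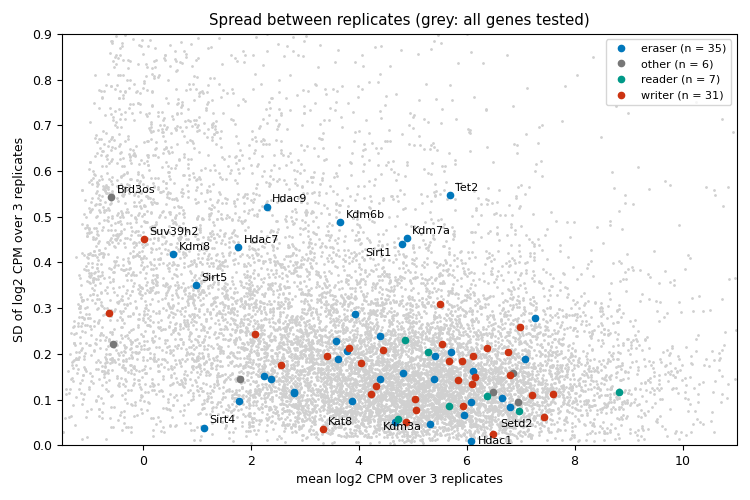
SD over 3 replicates of log2 CPM against mean log2 CPM for all genes tested (grey) and for the 79 members tested, coloured by role; 253 genes lie above the axis and 39 to the right of it. Tet2, at an SD of 0.55, lies above the members of like abundance, and Hdac1 lies at the bottom edge.

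The members had less of their TPM in full-length coding transcripts than expressed genes at large. A transcript was called long coding where its coding sequence is at least 80% of the longest of the gene. The median share of TPM in long coding transcripts was 74.2% over the 74 expressed members and 90.3% over 9738 expressed genes. In the FASTQ-made tables it was 71.0% and 86.0%. The median share in transcripts annotated with a retained intron, which keep an intron and encode no full protein, was 5.27% against 0.617%. These are shares of TPM, which weighs a short transcript more per read. Genes were not matched for their number of annotated transcripts, and the shares were not tested. The highest transcript was long coding in 65 of 74 members (88.6% of expressed genes), and in 65 in the FASTQ-made tables (88.2%). It was not protein coding in 4 members (5.78% of expressed genes), and in 4 in the FASTQ-made tables (6.4%). Both kinds of table named the same highest transcript in 65 of 74 members.

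The 4 members in the alignment tables were Dnmt3a, Sirt4, Setd6 and Hdac7. For Sirt4, Sirt4-203, which retains an intron, took 33.9%, 43.1% and 60.0% of TPM, and coding transcripts alone were at 0.47, 1.05 and 0.78 TPM. For Setd6, Setd6-206, a processed transcript without a reading frame, took 55.8%, 21.2% and 43.9%. For Hdac7, Hdac7-211, with a retained intron, took 26.1%, 44.1% and 33.6%, but in the FASTQ-made tables a coding transcript was highest. Sirt4 had only 50, 78 and 80 counts, and the shares of all 4 were uneven between replicates. In the FASTQ-made tables Kdm5a joined the list: Kdm5a-207, a processed transcript of 1295 bases, took 44.4% ± 3.51 of TPM there and 43.8% ± 5.79 in the alignment tables. That transcript held 8.47% ± 0.80 of the expected counts of Kdm5a.

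Several members were highest as a shortened coding form. Nsd3-203, which encodes 621 of 1446 amino acids, took 54.2%, 58.8% and 58.8% of the TPM of Nsd3. Hdac9-201, which encodes 588 of 1067 amino acids, took 71.1%, 69.0% and 56.2%. Kmt2c-208, with 1524 of 4904 amino acids, took 54.2%, 58.7% and 47.4%. All 3 of these also held large shares of the expected counts, 50.2% ± 2.58, 70.8% ± 4.62 and 37.8% ± 5.75 in that order. Kmt2d-204 differed: this transcript of 899 bases took 47.9%, 57.5% and 57.1% of TPM but 3.98% ± 0.76 of the expected counts of Kmt2d. In Sirt1 the long transcripts Sirt1-201 (51.3%, 14.2% and 46.1%) and Sirt1-202 (12.1%, 45.2% and 13.8%) changed places in replicate 2, the replicate in which Sirt1 was lowest. Both kinds of table showed this exchange, and its part in the Sirt1 level was not tested.

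**Figure D5:**
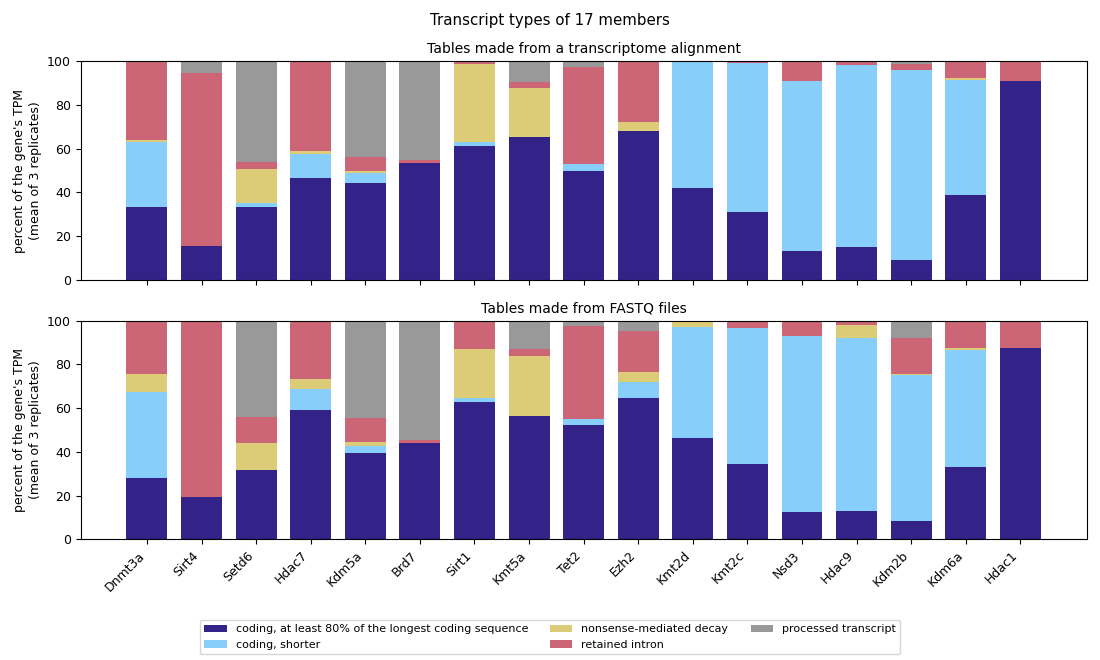
Percent of the TPM of a gene by transcript type (mean of 3 replicates) for 17 members, with tables made from a transcriptome alignment above and from FASTQ files below; the genes were chosen after their values were seen. Sirt4, Setd6 and Dnmt3a have large parts outside coding transcripts, Kmt2d to Kdm6a large parts in shorter coding transcripts, and Hdac1 is shown as a gene with 91.1% in long coding transcripts.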

How the data were processed

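Polyadenylated RNA of 3 samples was analysed. Gene and transcript tables made from a transcriptome alignment hold the authors' deposited expected counts and TPM; transcript tables made from FASTQ files hold deposited estimated counts and TPM. The deposited file lists name assembly mm10 and annotation M21; which programs were run and whether strand was used is not given in the sources used here. Gene tables have 81881 entries, of which 55536 matched GENCODE M21 genes; the phiX spike-in (0.107% to 0.178% of counts) was left out. Expected counts were rounded, filtered with filterByExpr, scaled by TMM and fitted with edgeR 4.0.16 (R 4.3.3). The F test of a gene's dispersion over the trend is one-sided. Log2 CPM used a prior count of 2 and log2(TPM + 1) a pseudocount of 1; related genes were compared as log2 TPM ratios within a sample. Python 3.11.15 and DESeq2 1.42.0 (size factors, an alternative) were also used. Start regions join starts within 2 kb. Sequences that genes share were counted as 31-base words of annotated transcripts: 17 of 84 members share at least 10%, and 29 overlap exons of a gene on the opposite strand. Those that share at least 10% include Sirt5 (16.4%), Kdm2b (13.4%) and Sirt3 (12.1%). Values were given for nearly all members by role, with the 10 largest and 5 smallest SDs. Members and lists were chosen with earlier results of these data known; the roles of Dnmt3c and Brd3os were added after the files were seen. Of the 84 members 1 is counted in every total but not reported by name here. The edgeR step was run on simulated counts drawn at the trended dispersion. They lack the differences in dispersion between genes that real data have, so that run does not show the power of the test here.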

Additional observations from a re-analysis of the deposited data

How the results depend on the processing

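Under other settings 19 differences between roles moved by less than 1 SD, 8 by more, and none of these settings turned a direction. Settings that leave out a replicate are among the 19 by construction. So are readers over writers without mitochondrial sirtuins and readers over erasers without Dnmt3c, since the genes left out have neither role. Writers exceeded erasers by 0.72 in the FASTQ-made tables, 0.91 with a pseudocount of 0.1, 1.22 in CPM, 0.74 over members with a mean of at least 1 TPM and 0.55 without mitochondrial sirtuins. Readers exceeded writers by 0.20 in CPM, and erasers by 1.24 over members with a mean of at least 1 TPM and by 1.24 without mitochondrial sirtuins. Leaving out each replicate gave 0.81 to 0.88 (writers over erasers), 0.58 to 0.78 (readers over writers) and 1.39 to 1.60 (readers over erasers).

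Of the balances between writers and erasers of a mark, 30 moved by less than 1 SD and 13 by more. Settings that leave out a replicate are again among the 30 by construction. In CPM the values were 1.07 (H3K4), -0.83 (H3K9), -0.26 (acetylation) and 0.91 (DNA). In the FASTQ-made tables they were -0.37 (H3K9) and 1.36 (H3K36), and with protein-coding transcripts alone -0.44 (H3K9). With long coding transcripts, chosen after seeing the data, they were -0.48 (H3K9), 1.24 (H3K27), 0.85 (H3K36), -1.29 (acetylation) and 1.34 (DNA). Without Sirt2, also chosen after seeing the data, acetylation was -0.54. Leaving out each replicate gave -0.07 to 0.15 (H3K4), -0.23 to -0.13 (H3K9), 0.17 to 0.47 (H3K27), 1.54 to 1.70 (H3K36), -1.20 to -1.09 (acetylation) and 1.79 to 2.19 (DNA). Apart from what each setting changes by construction, the cause was not tested.

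Over members with a mean of at least 10 TPM, chosen after seeing the data, the median deviation of members from that of all genes turned to -0.0084 in replicate 2 and to 0.0066 in replicate 3. The count of members whose highest transcript is not protein coding was 9 when short coding transcripts were added, and 5 to 6 when a replicate was left out. Members expressed stayed at 74 and members called variable at 0 when a replicate was left out, and 23 to 25 pairs lay beyond 2 SDs. Of single ratios between related genes under these settings, 142 moved by less than 1 SD and 38 by more. Settings that leave out a replicate are here too among the 142 by construction. Ratios that changed sign belong to Tet2 over Tet3, Hdac7 over Hdac4, Kat7 over Kat5 and Sirt6 over Sirt1, which had no settled side. No paired analysis was possible because there is 1 group. Depth limits the lowest members: 3 counts equal 0.128 CPM in replicate 1 and 0.0795 CPM in replicate 3.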
